A study of Mus musculus with 19 samples.

Results

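The genes described here are 9 mouse genes that have been reported as targets of the microRNA miR-181a-5p: Bcl2, Mcl1, Xiap, Dusp5, Dusp6, Ptpn11, Ptpn22, Sirt1 and Atm. They were chosen by name and looked up by Ensembl gene identifier among the 48709 genes of the count files, and all 9 were among the 19286 genes tested. RNA sequencing had been performed on the microdissected CA1 region of the hippocampus of male C57B/6J wild-type mice, with 19 libraries in 3 groups. The young group (n = 6, 3 months) and the old-control group (n = 6, 16.5 months) received control oligonucleotides, and the old anti-miR-mix group (n = 7, 16.5 months) received a mixture of 3 microRNA inhibitors, against miR-181a-5p and, with it, miR-148a-3p and miR-146a-5p. All oligonucleotides were packed in lipid nanoparticles and injected into the dorsal hippocampus, so the old groups differed in the oligonucleotides and the control groups in age. The titles of all libraries carry the name of the mixture, and the groups were taken from the descriptions. No library received the miR-181a-5p inhibitor alone, so the 3 inhibitors cannot be told apart, and mature microRNA levels were not measured in these libraries.

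MicroRNAs are short RNAs that guide Argonaute proteins to messenger RNAs, mostly by pairing of their seed bases with the 3′UTR, and thereby shorten the life of the message or lower its translation. An inhibitor is an antisense oligonucleotide that occupies the microRNA, so a direct target is predicted to rise if the microRNA had been limiting its message. Changes that act on translation alone leave no trace in RNA counts. miR-181a-5p is abundant in brain and in lymphocytes, where it is known for tuning T cell receptor signalling through phosphatases, and its reported targets include survival genes, phosphatases of the ERK and tyrosine kinase pathways, a deacetylase and a DNA damage kinase.

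The mature sequences of the family are shown first because every member shares the seed, with bases 2 to 8 in capitals (RefSeq, GRCm38.p6).
miR-181a-5p: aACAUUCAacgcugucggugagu
miR-181b-5p: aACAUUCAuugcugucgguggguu
miR-181c-5p: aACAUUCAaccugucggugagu
miR-181d-5p: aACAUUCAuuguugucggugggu
The inhibitor of miR-181a-5p used in the mixture was complementary to positions 3 to 23 of the microRNA, and the capitals mark the bases that pair with the seed.
inhibitor: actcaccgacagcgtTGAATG
The negative control oligonucleotide held no match to the seed of the 6 microRNAs compared.
negative control: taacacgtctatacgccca

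A 3′UTR can pair with the seed of miR-181a-5p through an 8mer (TGAATGTA), a 7mer-m8 (TGAATGT), a 7mer-A1 (GAATGTA) or a 6mer (GAATGT), counted on the transcribed strand with a shorter match never counted inside a longer match. In the longest annotated 3′UTR of each gene, 7 of the 9 targets held a 7- or 8-base match, against 24.2% of the 15387 tested genes with an annotated 3′UTR. The 9 genes were chosen as reported targets of this microRNA, so an excess of matches may come with the choice and is no independent support. The median 3′UTR of the 9 genes was 2353 bases long and that of the tested genes 1330 bases, and longer 3′UTRs hold more matches. Ptpn11 held a single 6mer and Ptpn22 no match in a 3′UTR of 457 bases. Of the 9 genes, 6 were also in the study's list of predicted miR-181a-5p targets (Bcl2, Mcl1, Xiap, Dusp5, Dusp6 and Sirt1). Matches of 7 or 8 bases to the other 2 microRNAs of the mixture were found in Bcl2 (1 for miR-146a-5p and 1 for miR-148a-3p) and in Xiap (2 for miR-146a-5p).

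The 10 matches of 7 or 8 bases are shown because they are the longest stretches that could pair with the seed; no binding was measured, and each is printed 5′ to 3′ on the transcribed strand with the match in capitals (GRCm38, GENCODE M21).
Bcl2, 1481 bases after the stop codon, chr1:106541777-106541806, minus strand: agagagagaataaaaagtttcagGAATGTA
Bcl2, 1706 bases after, chr1:106541552-106541581, minus strand: accattcatctgtattaacgttgGAATGTA
Bcl2, 3428 bases after, chr1:106539830-106539859, minus strand: gagggattataataatcaggacTGAATGTA
Mcl1, 1709 bases after, chr3:95662509-95662538, plus strand: ataggcaggaatcaaatgactaaGAATGTA
Xiap, 37 bases after, chrX:42104997-42105026, plus strand: tgttatgttcttcttgctctaatTGAATGT
Xiap, 2060 bases after, chrX:42107020-42107049, plus strand: tccttagcctaggactcaaggacTGAATGT
Dusp5, 1003 bases after, chr19:53542301-53542330, plus strand: caataagttcccgtaaacccatgTGAATGT
Dusp6, 1144 bases after, chr10:99267420-99267449, plus strand: ttttgagctggaatttattataaGAATGTA
Sirt1, 1475 bases after, chr10:63320562-63320591, minus strand: gggaactttagcatgtcaaaaaaTGAATGT
Atm, 491 bases after, chr9:53439249-53439278, minus strand: tcatgggaatccctcattagaaTGAATGTA
Among these 10 matches the 8mers were those of Bcl2 and Atm.

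**Figure D1:**
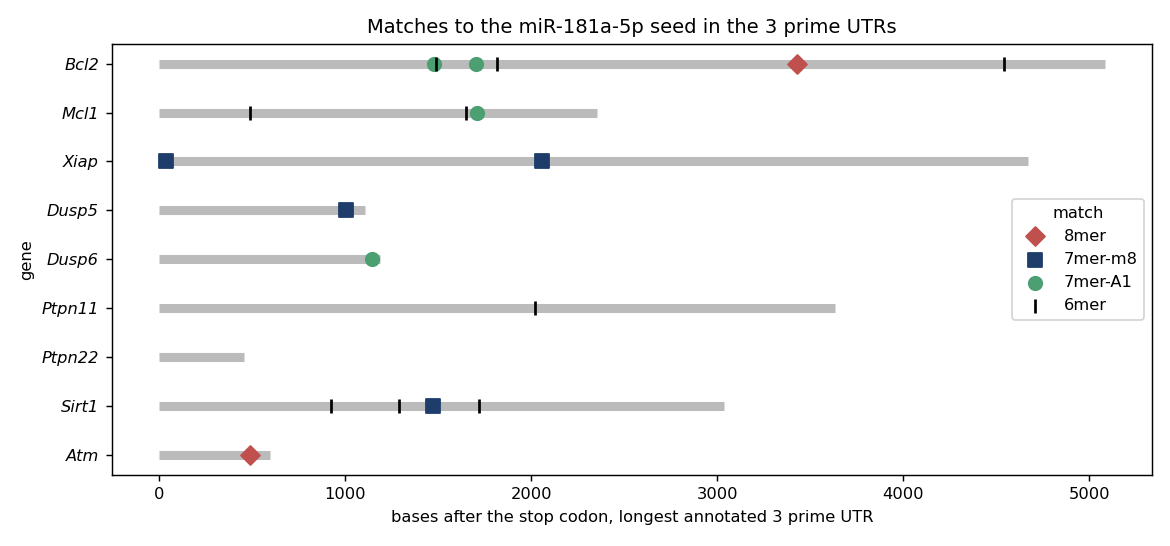
Matches to the miR-181a-5p seed along the longest annotated 3′UTR of each gene (grey bar), with the distance from the stop codon in bases on the x axis and 1 gene per row. Bcl2 holds 6 matches over 5086 bases, and Ptpn22 holds none.

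The libraries held between 26653511 and 38908947 reads assigned to genes. All 5 markers of CA1 pyramidal neurons were detected, with a summed level of 687 to 985 CPM (reads scaled to the library total) over the libraries, and the 4 markers of dentate granule cells summed to 31.3 to 91.3 CPM. Old control replicates 5 and 6 were the most alike of all pairs within a group, with a chi-square of 2.18 per degree of freedom over 12780 genes against at least 6.10 for any other pair, and results are also given with both counted as 1 library. A whole number from 1 to 4 per library, which the deposited normalised table had been adjusted for, was treated as a possible technical batch and is called processing group. Groups 1, 2, 3 and 4 held 2, 2, 0 and 2 old-control libraries and 1, 2, 3 and 1 old anti-miR-mix libraries. The genes for the miR-181a-5p precursors, Mir181a-1 and Mir181a-2, had 0 reads in every library (a count of 0 allows up to 3 reads), and Mir181c and Mir181d had 0 to 3, so the libraries give no measure of the microRNA.

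Per kilobase of exon, the 9 targets spanned a wide range of levels. The phosphatase gene Ptpn11 was highest at 34.0 ± 1.43 CPM per kb (mean ± SD over 19 libraries), followed by Mcl1 at 26.2 ± 2.65 and Dusp6 at 24.0 ± 5.14. Xiap had 12.5 ± 0.711 CPM per kb and Dusp5 10.8 ± 2.29. Sirt1 (4.04 ± 0.344), Atm (3.22 ± 0.180) and Bcl2 (2.18 ± 0.196) were lower, and Ptpn22 was lowest at 0.190 ± 0.0426 CPM per kb, which corresponded to 26 to 60 reads per library. The ranges of Mcl1 and Dusp6 overlapped, as did those of Xiap and Dusp5 and those of Sirt1 and Atm, whereas the other neighbours in this order did not overlap. In bulk tissue, fewer cells of a type and less RNA per cell cannot be told apart.

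The main question was whether the targets were higher in old mice that received the inhibitors than in old controls. None of the 9 genes passed the threshold between old anti-miR-mix and old control, in either direction. In edgeR's quasi-likelihood test 0 of 9 passed an adjusted p of 0.05, beside 0.669% of all genes tested (129 genes, a count that was 9 with processing group as a factor, 36 with old control replicates 5 and 6 as 1 library and 267 in DESeq2), and 0 of 9 had an unadjusted p under 0.05, beside 10.5% of all genes. DESeq2 and limma-voom also called 0 of 9, with 0 and 1 genes at an unadjusted p under 0.05. In the one-sided test for a rise 0 of 9 passed in edgeR after adjustment over all genes (background 1.15%), and 1 of 9, Ptpn22, had an unadjusted one-sided p under 0.05 (background 10.5%). The fitted log2 fold change was above 0 for 7 of 9 genes, beside 50.2% of all genes. The groups overlapped for all 9 genes, and they did not overlap for 0.498% of all genes. The median log2 fold change of the 9 genes was 0.04, with a range from -0.08 (Atm) to 0.28 (Ptpn22), and the median of all genes was 0.00035.

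**Figure D2:**
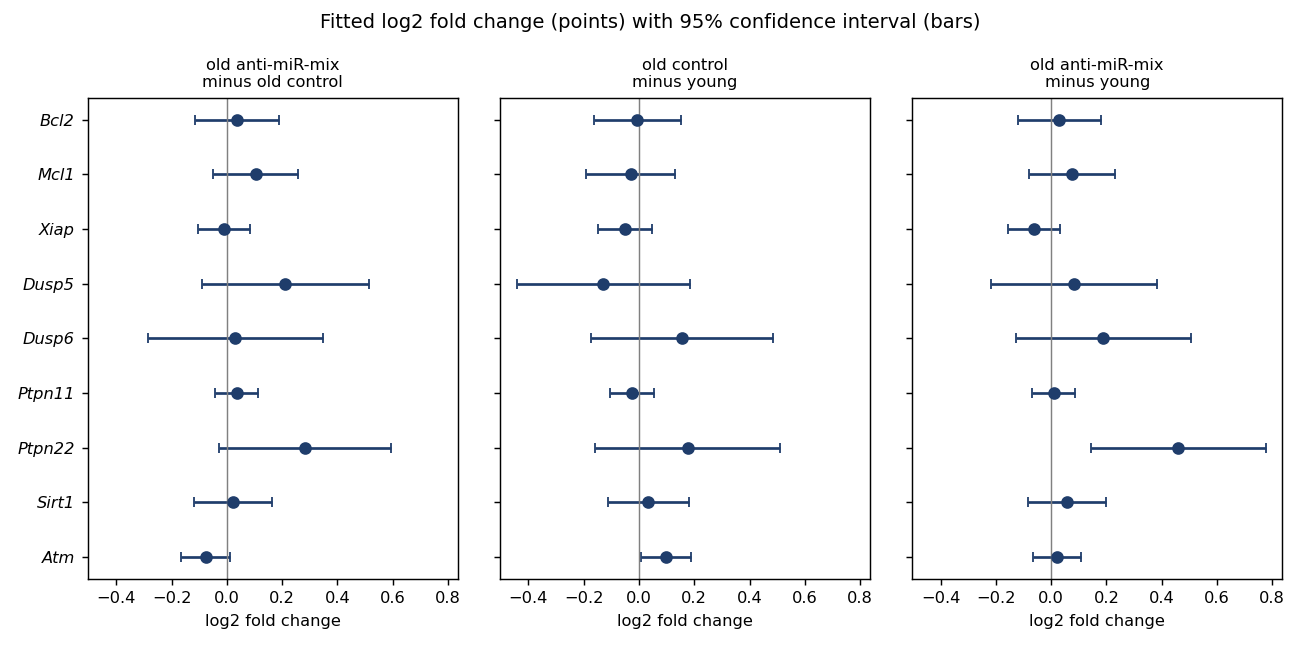
Fitted log2 fold change of each gene (points) with its 95% confidence interval (bars) in the 3 comparisons, on a shared x axis with a line at 0. In old anti-miR-mix minus old control all 9 intervals include 0, from -0.08 for Atm to 0.28 for Ptpn22.

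Bcl2, Mcl1 and Xiap act against apoptosis, the first pair by holding back the pore-forming proteins of the mitochondrial membrane and Xiap by blocking caspases. Bcl2 (ENSMUSG00000057329, chr1:106538178-106714274, minus strand) ranged from 4.04 through a median of 4.40 to 4.48 log2 CPM in old anti-miR-mix, from 4.07 through 4.36 to 4.48 in old control, and from 4.25 through 4.29 to 4.41 in young. The 3 ranges lay on each other, and replicate 1 was the lowest library in both old groups. The fold change was 1.03 (95% CI 0.924 to 1.14, adjusted p = 0.912 in edgeR). Of the exonic bases of Bcl2, 558 also belong to a gene on the opposite strand, D630008O14Rik. How reads over these bases were assigned is not given in the sources used here.

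Mcl1 (ENSMUSG00000038612, chr3:95658788-95663176, plus strand) ranged from 6.35 through 6.55 to 6.70 log2 CPM in old anti-miR-mix and from 6.21 through 6.46 to 6.58 in old control. In young the values were 6.18, 6.45 and 6.74. Old anti-miR-mix lay higher, with 5 of 7 libraries above the old-control median, but the groups overlapped and the fold of 1.08 (95% CI 0.966 to 1.20) had an adjusted p of 0.670 in edgeR. Xiap (ENSMUSG00000025860, chrX:42059679-42109656, plus strand) ranged from 6.72 through 6.89 to 6.98 log2 CPM in old anti-miR-mix, from 6.75 through 6.87 to 6.97 in old control and from 6.81 through 6.92 to 7.03 in young. The ranges of the old groups lay on each other for this gene, which carries a pair of 7mer-m8 matches, and the fold was 0.992 (95% CI 0.930 to 1.06, adjusted p = 0.959 in edgeR).

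Dusp5 and Dusp6 encode phosphatases that switch off ERK in the nucleus and in the cytoplasm, and both genes are themselves induced by ERK activity. Dusp5 (ENSMUSG00000034765, chr19:53529109-53542431, plus strand) ranged from 4.55 through 4.64 to 5.20 log2 CPM in old anti-miR-mix, from 4.35 through 4.63 to 4.90 in old control and from 4.27 through 4.64 to 5.36 in young. The medians of the 3 groups lay between 4.63 and 4.64, and the highest old anti-miR-mix libraries were replicates 3 and 1, at 5.20 and 5.17. The fold was 1.16 (95% CI 0.939 to 1.43, adjusted p = 0.652 in edgeR). Dusp5 shares 547 exonic bases with AC137853.2 on the opposite strand.

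Dusp6 (ENSMUSG00000019960, chr10:99263231-99267489, plus strand) ranged from 5.99 through 6.22 to 6.79 log2 CPM in old anti-miR-mix, from 5.95 through 6.27 to 6.60 in old control and from 5.64 through 5.93 to 6.65 in young. The highest old anti-miR-mix library was replicate 3 for both phosphatases, and the highest young library was replicate 4 for both. The fold of Dusp6 was 1.02 (95% CI 0.821 to 1.27, adjusted p = 0.968 in edgeR). Within groups the SD of log2 CPM was 0.29 for Dusp5 and 0.31 for Dusp6, and the median over all tested genes was 0.15, and the intervals of these genes and of Ptpn22 were the widest of the 9.

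Ptpn11 encodes SHP2, a tyrosine phosphatase that passes growth factor signals to Ras and ERK, and Ptpn22 encodes a phosphatase of blood-derived cells that damps antigen receptor signalling. Ptpn11 (ENSMUSG00000043733, chr5:121130533-121191397, minus strand) ranged from 7.94 through 8.01 to 8.09 log2 CPM in old anti-miR-mix, from 7.93 through 7.97 to 8.02 in old control and from 7.89 through 7.98 to 8.10 in young. It varied least of the 9 genes, with a within-group SD of 0.06, and the fold of 1.03 (95% CI 0.972 to 1.08, adjusted p = 0.800 in edgeR) had the smallest SE of the 9 on the log2 scale, at 0.04.

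Ptpn22 (ENSMUSG00000027843, chr3:103859795-103912247, plus strand) ranged from 0.47 through 0.62 to 0.86 log2 CPM in old anti-miR-mix, from 0.10 through 0.26 to 0.96 in old control and from -0.26 through 0.16 to 0.55 in young. All 7 old anti-miR-mix libraries lay above the old-control median, while old control replicate 3 was the highest of all libraries. The fold was 1.22 (95% CI 0.980 to 1.51, adjusted p = 0.534 in edgeR), and the exact permutation p of the difference in log2 CPM was 0.0559 (two-sided) and 0.0286 (one-sided for a rise). The permutation counted old control replicates 5 and 6 as separate libraries. With both as 1 library the log2 fold change was 0.25 (unadjusted one-sided p for a rise = 0.0689 in edgeR). Without old control replicate 3 the log2 fold change was 0.43 (adjusted p = 0.198 in edgeR), whereas a fit with the processing group as a factor gave 0.12 (adjusted p = 0.894).

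Sirt1 encodes a deacetylase that depends on NAD and has been tied to ageing and neuronal plasticity, and Atm encodes the kinase that senses DNA double-strand breaks. Sirt1 (ENSMUSG00000020063, chr10:63319005-63381704, minus strand) ranged from 4.18 through 4.43 to 4.67 log2 CPM in old anti-miR-mix, from 4.28 through 4.43 to 4.58 in old control and from 4.19 through 4.45 to 4.52 in young. The ranges of the 3 groups lay on each other. The fold was 1.02 (95% CI 0.921 to 1.12, adjusted p = 0.944 in edgeR), and 65 exonic bases are shared with Gm16145 on the opposite strand.

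Atm (ENSMUSG00000034218, chr9:53439149-53536740, minus strand), which carries an 8mer, ranged from 4.94 through 5.04 to 5.16 log2 CPM in old anti-miR-mix, from 5.01 through 5.13 to 5.20 in old control and from 4.92 through 5.01 to 5.13 in young. Old anti-miR-mix lay lower than old control, with 1 of 7 libraries above the old-control median. The fold was 0.948 (95% CI 0.892 to 1.01, adjusted p = 0.551 in edgeR), and the one-sided exact permutation p for a rise was 0.962. The upper limit of its 95% interval was a rise of 1.01-fold, and those of Xiap, Ptpn11, Sirt1 and Bcl2 were 1.06-fold, 1.08-fold, 1.12-fold and 1.14-fold. For Mcl1, Dusp6, Dusp5 and Ptpn22 a rise of up to 1.20-fold, 1.27-fold, 1.43-fold and 1.51-fold lay within the interval.

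**Figure D3:**
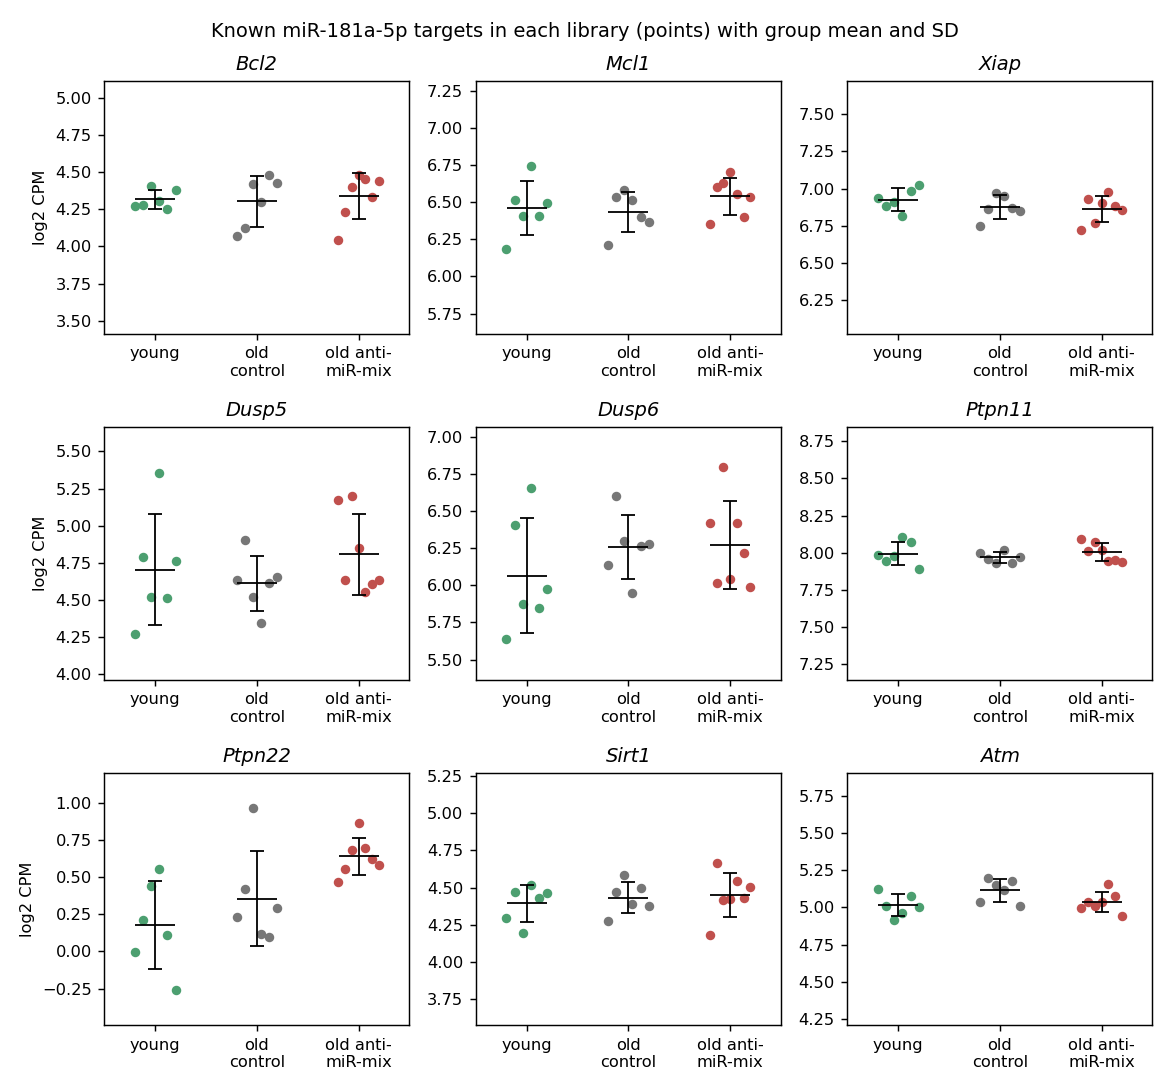
log2 CPM of the 9 genes in each library (points, coloured by group) with the group mean (horizontal line) and SD (bars), each panel spanning the same height on its own y axis. The groups overlap in every panel, and Ptpn22 has the lowest level, from -0.26 to 0.96.

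The treatment difference was also taken within processing groups, where 1, 2 and 1 old anti-miR-mix libraries could be set against 2, 2 and 2 old-control libraries of processing groups 1, 2 and 4. These are differences in log2 CPM between so few libraries that no test was run. Ptpn22 was higher in old anti-miR-mix in all 3 processing groups (0.14, 0.03 and 0.42), and Atm was lower in all 3 (-0.12, -0.14 and -0.01). Bcl2 was lower in all 3 (-0.06, -0.03 and -0.12), against a pooled log2 fold change of 0.04. For Mcl1 the 3 differences were -0.02, 0.02 and 0.02, against 0.10 pooled. With processing group as a factor 5 of 9 fitted log2 fold changes were above 0, and with it and old control replicates 5 and 6 as 1 library 4 of 9. The design has no old control in processing group 3, which holds 3 of the 7 old anti-miR-mix libraries.

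**Figure D4:**
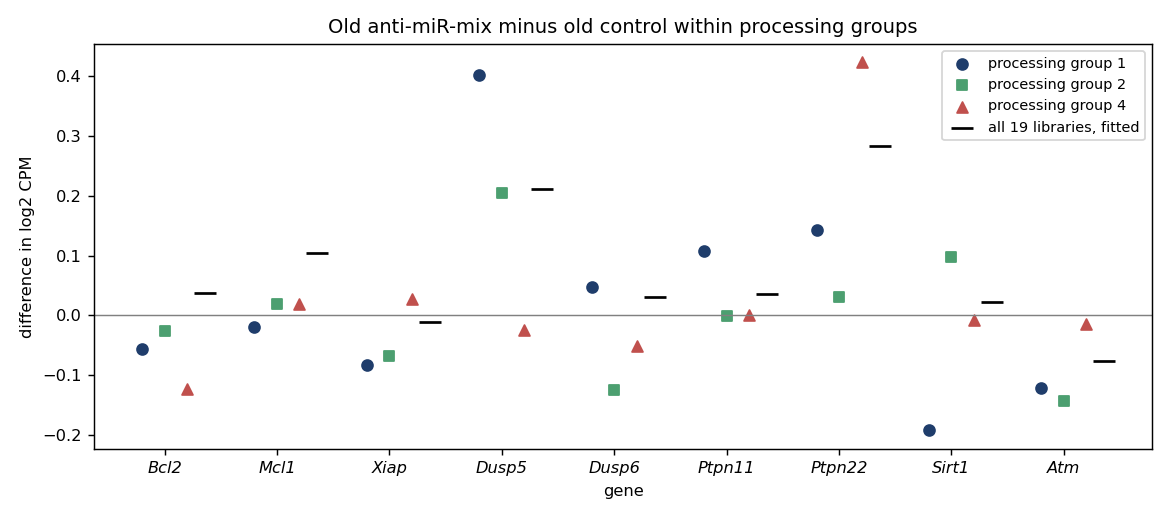
Difference in log2 CPM between old anti-miR-mix and old control within processing groups 1, 2 and 4 (coloured points) beside the fitted value over all 19 libraries (black dash) for each gene. Ptpn22 is above 0 and Atm and Bcl2 are below 0 in all 3 processing groups.

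With age, from young to old control, none of the 9 genes passed the adjusted threshold. In edgeR 0 of 9 passed (background 2.67%) and 1 of 9, Atm, had an unadjusted p under 0.05 (background 18.1%), and DESeq2 and limma-voom called 0 of 9 as well, with Atm at an unadjusted p of 0.0428 and 0.0373. Of the 9 genes, 4 had a fitted log2 fold change above 0 (background 52.2%) and 0 had groups that did not overlap (background 2.54%). Atm was 1.07-fold higher in old control (95% CI 1.00 to 1.14, unadjusted p = 0.0364, adjusted p = 0.238 in edgeR), with 6 of 6 old-control libraries above the young median. Within processing groups 1, 2 and 4 the difference in log2 CPM of Atm was -0.01, 0.12 and 0.05, and a fit with processing group as a factor gave 0.09 (unadjusted p = 0.0739 in edgeR). Dusp6 was at 0.16 (SE 0.16) and Ptpn22 at 0.18 (SE 0.16) on the log2 scale, and Dusp5 at -0.13 (SE 0.15). For Dusp6 as well, 6 of 6 old-control libraries lay above the young median, at an unadjusted p of 0.334 in edgeR. The other 5 genes lay between -0.05 (Xiap) and 0.03 (Sirt1).

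Between old anti-miR-mix and young, the comparison with both age and inhibitors in it, 0 of 9 genes passed in edgeR (background 6.20%) and 1 of 9, Ptpn22, had an unadjusted p under 0.05 (background 19.6%). DESeq2 and limma-voom called 0 of 9 too, with an unadjusted p of 0.00837 and 0.00410 for Ptpn22. The log2 fold change was above 0 for 8 of 9 genes (background 51.0%), and 0 of 9 had groups that did not overlap (background 2.42%). Ptpn22 was 1.38-fold higher than in young (95% CI 1.10 to 1.71, unadjusted p = 0.00644, adjusted p = 0.0787 in edgeR), with 7 of 7 libraries above the young median and an exact permutation p of 0.00117 (two-sided, not adjusted for the genes tested). For Dusp6 too, 7 of 7 libraries lay above the young median, at an unadjusted p of 0.232 in edgeR. Within processing groups 1, 2, 3 and 4 Ptpn22 was higher by 0.47, 0.36, 0.25 and 0.69 on the log2 scale, without a test. It passed without young replicate 4 (log2 fold change 0.55, adjusted p = 0.0444 in edgeR), without old control replicate 3 (0.46, adjusted p = 0.0350) and in limma on the deposited log2 values (0.27, adjusted p = 0.0473). The comparisons share libraries, as old control enters both the age and the treatment comparison and young both others. The log2 fold changes of Atm in treatment, age and old anti-miR-mix against young were -0.08, 0.10 and 0.02, and those of Ptpn22 were 0.28, 0.18 and 0.46.

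Markers of microglia, the immune cells of the brain, moved with Ptpn22. The summed level of 9 microglia markers, with none of the 9 at 0, was 308 to 381 CPM in young, 377 to 431 in old control and 414 to 549 in old anti-miR-mix. Of the 9, Csf1r and Ptprc were among those that rose in old anti-miR-mix against old control (log2 fold changes of 0.32 and 0.78, adjusted p of 0.0276 and 0.0259 in edgeR), and Cx3cr1 rose with age (0.35, adjusted p = 0.0108 in edgeR). Calls of single marker genes are given from this fit only. Its treatment calls over all genes fell from 129 (0.669%) to 9 with processing group as a factor. With old control replicates 5 and 6 as 1 library they were 36. Against young 8 of 9 rose in old anti-miR-mix (6.20% of all genes were called), led by Ptprc (1.21) and Aif1 (0.66). Ptpn22 per 1000 CPM of these markers was 3.08 ± 0.531 CPM in young (SD, n = 6), 3.09 ± 0.697 in old control (n = 6) and 3.10 ± 0.305 in old anti-miR-mix (n = 7), a ratio computed after the values of Ptpn22 had been seen. Across the 19 libraries log2 CPM of Ptpn22 and the log2 summed microglia level had a Pearson r of 0.75, and the r of Ptpn22 was 0.72 with the lymphocyte markers and 0.68 with the astrocyte markers, all descriptions over libraries that share groups and depth. The summed level of 9 lymphocyte markers, of which 5 were high enough to be tested and none was at 0 in all libraries, was 0.743 to 2.60 CPM in young, 1.20 to 2.15 in old control and 1.63 to 4.15 in old anti-miR-mix. The ratio is given for the microglia markers only. The part of microglia, lymphocytes or astrocytes in the level of Ptpn22 was not tested.

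Of the other cell type markers, 5 oligodendrocyte markers summed to 6864 to 10884 CPM in young, 6073 to 7214 in old control and 6196 to 9132 in old anti-miR-mix, and the r of this sum (log2) with Ptpn11 was 0.70. The other values of r beyond 0.5 in size between a member and a marker sum were those of Mcl1 with lymphocyte (0.61) and oligodendrocyte markers (0.53), Sirt1 with endothelial (0.61) and astrocyte markers (0.57), and Xiap (-0.59) and Dusp6 (0.50) with CA1 markers. With age Mog and Cnp fell by 0.55 and 0.49 on the log2 scale (adjusted p of 0.00397 and 0.0162 in edgeR). The 5 astrocyte, 5 endothelial and 5 blood markers summed to 1885 to 2459, 148 to 183 and 15.0 to 44.9 CPM over all libraries. Against young, the astrocyte gene Slc1a3 rose by 0.20 and the CA1 gene Wfs1 fell by 0.36 in old anti-miR-mix (adjusted p of 0.0119 and 0.0366 in edgeR). Their part in the levels of the 9 genes was not tested.

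Among themselves the 9 genes varied together most for Dusp5 and Dusp6, with an r of 0.77 over 19 libraries and 0.83 after the group means were removed. Mcl1 and Sirt1 had an r of 0.63, and Xiap and Dusp5 an r of -0.62. The gene whose pattern was most like that of a member, among 13672 genes with a mean log2 CPM of at least 1, was Egr4 for Dusp5 (r = 0.88), which encodes an activity-induced transcription factor, and Gpd1 for Dusp6 (r = 0.87). For Ptpn22 they were Selplg (r = 0.86) and Cmklr1 (r = 0.83), both known from leukocytes and microglia. For Sirt1 it was Prpf39 (r = 0.95), for Mcl1 Spty2d1 (0.88), for Xiap Fchsd2 (0.87), for Ptpn11 Arrdc2 (0.87), for Atm Ubr1 (0.80) and for Bcl2 Klf6 (0.75). The second genes were Gpr3 for Dusp5 (0.87), Sec14l2 for Dusp6 (0.85), Zcrb1 for Sirt1 (0.89), Sh3glb1 for Mcl1 (0.87), Hdgfl3 for Xiap (0.87), Tmem63a for Ptpn11 (0.83), Ofd1 for Atm (0.79) and Pard3b for Bcl2 (0.74).

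**Figure D5:**
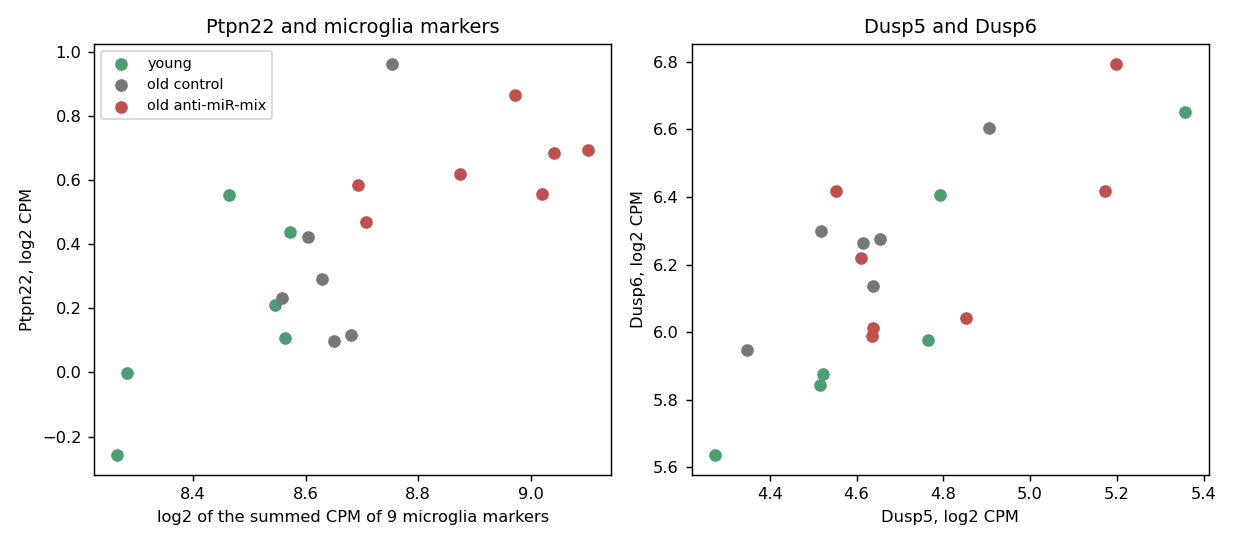
Left, log2 CPM of Ptpn22 against the log2 summed CPM of 9 microglia markers; right, log2 CPM of Dusp6 against that of Dusp5; each point is 1 of the 19 libraries, coloured by group. Pearson r is 0.75 on the left and 0.77 on the right.

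The relatives and pathway partners of the 9 genes were described from lists that hold the 9 genes where they belong. In treatment, 0 of the tested genes of the BCL-2 family (14), of the inhibitors of apoptosis and caspases (13), of the MAP kinase phosphatases (10), of the ERK pathway (16), of the tyrosine phosphatases and SHP2 adaptors (13), of the sirtuins (7) and of the DNA damage response (14) passed in edgeR, with 3, 2, 0, 1, 4, 1 and 3 genes at an unadjusted p under 0.05. Over all genes the shares were 0.669% and 10.5%. The median log2 fold changes of these lists were 0.08, 0.08, 0.05, -0.0025, 0.04, 0.02 and -0.02, beside 0.00035 for all genes. DESeq2 called 1 of these genes, Ptpn6, which encodes the SHP1 phosphatase of blood-derived cells (log2 fold change 0.57, adjusted p = 0.0135). Of 14 tested genes of 15 other reported miR-181a-5p targets, 0 passed in edgeR and 1 had an unadjusted p under 0.05, and their median was 0.02.

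With age Sirt2, a sirtuin of myelin, fell by 0.31 on the log2 scale (adjusted p = 0.00922 in edgeR), Brca1, a DNA repair gene, fell by 0.60 (adjusted p = 0.0294), and Gab2, an adaptor of SHP2, rose by 0.21 (adjusted p = 0.0353). Each was the only call of its list (7, 14 and 13 tested genes), and over all genes 2.67% were called. With old control replicates 5 and 6 as 1 library only Sirt2 of these 3 passed. Sirt2 passed in 32 of 33 fits, but not with processing group as a factor as well. Against young, 6.20% of all genes were called in old anti-miR-mix, 881 of 1196 of them higher. Of the 13 tested genes of the tyrosine phosphatase list, 4 were higher, led by the phosphatases Ptpn6 (1.00) and Ptpn18 (0.80) and the kinase Lck (0.37), with adjusted p of 0.000245, 0.00140 and 0.0499 in edgeR. Lck passed in 9 of 33 fits, and not in DESeq2, whereas Ptpn6 and Ptpn18 passed in all 33. Birc3 (0.66), an inhibitor of apoptosis, Prkcd (0.50), a reported miR-181a-5p target, and Casp9 (0.12) were higher as well, with adjusted p of 0.00515, 0.0113 and 0.0302 in edgeR. Prkcd was the only call among the 14 tested other reported targets. Of these 14, 6 had a log2 fold change above 0 (51.0% of all genes), and their median was -0.03. With age 0 of the 14 passed, 1 was higher and 4 lower at an unadjusted p under 0.05 in edgeR, and the median was -0.06. Spred2, an inhibitor of ERK signalling, fell by 0.18 (adjusted p = 0.0363 in edgeR).

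The study's list of predicted miR-181a-5p targets held 1121 names, of which 1108 matched and 1063 were tested. In treatment 2 rose, Syngr2 (log2 fold change 0.43, adjusted p = 0.0206 in edgeR) and Plau (0.89, adjusted p = 0.0156), a urokinase gene, and 0 fell; the background is 0.669% in both directions together. The median was -0.02, and 401 of 1063 had a log2 fold change above 0, beside 50.2% of all genes. Whether the list differed from other genes was not tested here. With age 15 rose and 20 fell past the threshold, beside 255 higher and 259 lower of the 19286 genes tested (2.67% called). The median of all 1063 was -0.0059. The highest were Lin28b (0.82), Pde11a (0.64) and Lif (0.59) and the lowest Depdc1b (-0.98), Cnksr3 (-0.79) and Rassf10 (-0.70), each past the threshold in edgeR. Against young, 30 of them passed the threshold as higher in old anti-miR-mix and 35 as lower in edgeR. Sall4 (1.52) and Plau (0.89) were among the highest of these calls, and Rassf10 (-0.56), Cnksr3 (-0.51) and Gnb4 (-0.30) were the lowest. Called or not, 383 of 1063 had a log2 fold change above 0, beside 51.0% of all genes, and the median was -0.03. Over all genes 6.20% were called, 881 of 1196 of them higher.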

How the data were processed

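Counts per gene were used as deposited: the authors aligned 50-base single-end reads of polyA libraries with STAR 2.5.2b to mm10, counted them with featureCounts (Subread 1.5.1) and checked them with FastQC 0.11.5. Strand and multi-mapping settings are not given in the sources used here. The deposited log2 table held log2(CPM + 1) of 18761 genes minus a slope per gene for a whole number per library (largest residual 3.4e-08). Its CPM used the library total over these genes without a TMM factor. How the whole numbers were set is not given in the sources used here.

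Groups came from the labels. A gene was tested if 50% or more of the libraries had 5 or more reads of it (19286 of 48709). The 3 groups were fitted together in edgeR 4.0.16 (TMM, quasi-likelihood, R 4.3.3), with Benjamini-Hochberg adjustment over all genes tested and a threshold of 0.05; one-sided p came from the same fit. log2 CPM used a prior count of 2. Alternatives used DESeq2 1.42.0, limma 3.58.1, other size factors and filters, processing group, a replicate block, libraries left out and exact permutation tests. The fit was tested on simulated data. Each library is labelled as a separate sample of its group, so p-values measure the spread between these libraries.

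Matches were sought in 3′UTRs of GENCODE M21 (GRCm38, the build named mm10). The members and lists were chosen with earlier results of these data known. All 9 members are named; from the other lists, up to 3 genes per list past the threshold in a comparison by size of change, from the predicted targets up to 3 highest and 3 lowest, and for each member the 2 genes with the most similar pattern. Some genes that this rule selects are not reported here. Lymphocyte, oligodendrocyte and other marker lists were described only. Depth limits the precision of low genes such as Ptpn22, and counting error is only part of the spread.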

Additional observations from a re-analysis of the deposited data

Results flagged for a closer look

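Ptpn22 in old control replicate 3, at 0.96 log2 CPM, stood apart from the other 5 old-control libraries, which lay between 0.10 and 0.42. The gap was 0.627 of the range of the group. Of 27 combinations of gene and group examined, this was the only such case, and about 1 in 20 would be singled out by chance alone. The library had 50 reads of Ptpn22, against 32 to 42 in the other old-control libraries. Without it the log2 fold change of Ptpn22 in old anti-miR-mix minus old control was 0.43 (unadjusted p = 0.00439, adjusted p = 0.198 in edgeR) and that of old control minus young was 0.03 (adjusted p = 0.974 in edgeR).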

How the results depend on the processing

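In treatment and with age 0 of 9 genes passed in any of the 33 fits, the one-sided test for a rise included. Old anti-miR-mix against young gave 1 gene, Ptpn22, in limma on the deposited log2 values, and 0 to 1 with a library left out (1 without young replicate 4 or old control replicate 3). In the two-sided test no member passed in any comparison with DESeq2, limma-voom or processing group as a term, and the replicate block called 0 of 9 in each. The one-sided test for a rise was set for treatment only; applied to old anti-miR-mix against young, Ptpn22 had an adjusted one-sided p of 0.0564 in the fit reported, and it passed in limma-voom (0.0415), with the replicate block (0.0466), with library totals only (0.0482) and in limma on the deposited values (0.0305). Over genes, the deviations of same-numbered libraries from their group means correlated by -0.17 to 0.21. Of 18 pairs, 6 were over 0.1 and 5 were best with their own number, so the numbers were not taken to pair the animals. Over all genes, the 129 calls in treatment became 9 with processing group as a factor, 36 with old control replicates 5 and 6 as 1, 4 with both, 267 in DESeq2, 24 to 42 without old control replicate 1, 2, 5 or 6 or old anti-miR-mix replicate 2, 3, 4 or 5, and 232 and 247 without old anti-miR-mix replicates 6 and 1. For the other lists the replicate block gave 1 gene in treatment, Ptpn6, and 5 with age, DESeq2 1 and 7, and old control replicates 5 and 6 as 1 library, with or without processing group as a factor (a fit chosen after seeing the data), 1 with age, against 0 and 3. Against young they gave 5 with no filter on low counts and 4 with only the groups compared, against 8. Leaving out a library gave 0 to 1 in treatment (1 without old anti-miR-mix replicate 1 or 6, Ptpn6, or old control replicate 4, Prkcd), 1 to 6 with age (1 without young replicate 3 or 6 or old control replicate 5 or 6, and 6 without young replicate 2) and 5 to 9 against young (5 without young replicate 3 or 4 or old anti-miR-mix replicate 6).

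Small fold changes turned sign. With processing group as a factor, Bcl2 was at -0.03 and Dusp6 at -0.10 in treatment, and Bcl2 at 0.05 and Mcl1 at 0.03 with age. With old control replicates 5 and 6 as 1 as well, Bcl2 was at -0.02, Mcl1 at -0.0025 and Dusp6 at -0.09 in treatment, and Bcl2 at 0.04 and Mcl1 at 0.04 with age. Xiap in treatment was 0.01 with library totals only and 0.0035 in limma on the deposited values. With age Bcl2 was 0.03 with processing group as a linear term and 0.01 in limma on the deposited values. Ptpn11 against young was -0.0030 with at least 10 reads. With a library left out, treatment values ranged from -0.01 to 0.08 for Bcl2, -0.04 to 0.01 for Xiap, -0.07 to 0.11 for Dusp6 and -0.01 to 0.06 for Sirt1. Age values ranged from -0.04 to 0.04 for Bcl2, -0.08 to 0.03 for Mcl1, -0.21 to 0.04 for Dusp5 and -0.0042 to 0.07 for Sirt1, and Ptpn11 against young from -0.01 to 0.03. The cause was not tested. The count of genes with a 7- or 8-base match was 7 as well with all annotated 3′UTRs joined.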

Other observations

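Over the 15387 tested genes with an annotated 3′UTR, the 11664 without a 7- or 8-base match to miR-181a-5p had a median log2 fold change of 0.0042 in old anti-miR-mix minus old control, the 2738 with 1 match -0.01 and the 985 with 2 or more -0.02. These are descriptions, with no test, and longer 3′UTRs hold more matches. In old control minus young the medians were 0.00042, -0.0020 and 0.0046. Of the study's predicted targets of the other microRNAs in the mixture, 270 of miR-146a-5p and 628 of miR-148a-3p were tested. In treatment 0 and 2 of them were higher and 0 and 0 lower in edgeR, 34 and 61 had an unadjusted p under 0.05 (10.5% of all genes did), and their medians were -0.02 and -0.02.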
